A study of Sus scrofa with 48 samples.

Results

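Of the 17379 circRNAs counted in seminal plasma extracellular vesicles (SPEVs) of boars, 328 (1.89%) joined 2 ends that lay at least 50000 bp apart in the genome and had junction reads in 2 to 11 of the 24 long RNA libraries. These long-span circRNAs were chosen by that rule alone, which used the deposited coordinates and whether a count was above 0. Their number of libraries is therefore a description of the choice and not a finding. Altogether 924 circRNAs spanned 50000 bp or more, of which 565 had reads in 1 library and 31 in 12 or more. The vesicles came from boars of 1 boar station, sexually mature and 14 to 36 months of age. Their breed is Yorkshire in the labels and large white in the paper. Of the boars, 12 had high sperm motility (H group) and 12 low sperm motility (L group). Each boar gave 1 long RNA library, named H1 to H12 and L1 to L12 below, and the labels name no treatment of the animals. The values are counts of reads across the back-splice junction, so that no vesicle marker transcript could be checked in the same table. Libraries held 128644 to 610615 junction reads, and 0 of 276 pairs of libraries had identical counts.

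A circRNA arises when the spliceosome joins the end of a downstream exon to the start of an upstream exon, which closes the exons between them into a ring. The introns inside are usually spliced out, so a circle may cover a long stretch of the genome and still be a short RNA. Extracellular vesicles are small membrane-bound particles that cells release, and those of semen carry RNA and protein that sperm meet on their way out of the male tract. Host genes of circRNAs often have long introns beside the exons that circularise.

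The junction identifies a circRNA, and 10 junctions on which the following results turn are shown. Each is written 5′ to 3′ on the strand of the splice sites, with the last 25 bases of the circle in lower case and, after the junction, its first 25 bases in capitals. They were read from the RefSeq sequence of Sscrofa11.1 at the deposited coordinates, and 327 of the 328 long-span circRNAs, all those on chromosomes, had AG before the first base and GT after the last. The same held for all 17254 circRNAs of the table whose sequence was read, so these bases do not set the long-span circRNAs apart. The first 4 belong to circRNAs of wide detection, of high level or of uneven detection between the groups.
circ-GPHN, chr7:90698518-90751496, plus strand: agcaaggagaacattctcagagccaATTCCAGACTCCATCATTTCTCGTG
circ-KANSL1L, chr15:112808098-112896614, minus strand: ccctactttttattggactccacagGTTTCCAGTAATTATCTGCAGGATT
circ-RERE, chr6:69106984-69170871, minus strand: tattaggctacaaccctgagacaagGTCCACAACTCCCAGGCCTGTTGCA
circ-ARHGAP32, chr9:56068623-56132486, minus strand: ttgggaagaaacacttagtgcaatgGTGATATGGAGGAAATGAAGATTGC
The next 2 junctions had an end outside any gene they share, the first with 1 end in ORC5 and the other joining ADAMTS6 and CENPK.
circ-chr9, chr9:103997454-104081735, minus strand: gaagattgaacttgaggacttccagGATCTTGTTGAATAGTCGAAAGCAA
circ-chr16, chr16:43997828-44055338, minus strand: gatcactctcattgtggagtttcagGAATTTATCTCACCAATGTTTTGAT
The last 4 are shown because each pair shared the end of the circle and differed at its start by 3 bases, which are the CAG that opens the capitals of the longer form.
circ-HIVEP2, long form, chr1:22285744-22352249, plus strand: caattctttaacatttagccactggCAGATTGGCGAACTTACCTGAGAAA
circ-HIVEP2, short form, chr1:22285747-22352249, plus strand: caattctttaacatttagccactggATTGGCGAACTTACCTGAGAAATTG
circ-MYO9A, long form, chr1:169482790-169542823, minus strand: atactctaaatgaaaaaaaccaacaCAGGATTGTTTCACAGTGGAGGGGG
circ-MYO9A, short form, chr1:169482790-169542820, minus strand: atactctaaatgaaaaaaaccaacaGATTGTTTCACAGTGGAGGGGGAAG

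The question of what these circRNAs are was addressed first. Their median span was 64819 bp, with 122 under 60000 bp and 34 of 90000 bp or more, and the longest, in LRBA on chromosome 8 (a gene of vesicle traffic), covered 99663 bp, which was also the longest span of the whole table. Compared with NCBI Annotation Release 106, 279 (85.1%) had both ends in exons of 1 gene, 25 were intergenic and 1 lay on an unplaced scaffold. The other 23 lay within 1 gene with at least 1 end outside its exons, and some of these had the other end on an exon edge. The exonic share was 92.5% among circRNAs of 10000 to under 50000 bp found in 2 to 11 libraries (the intermediate class) and 93.4% among those under 10000 bp (the shortest class). Among circRNAs of 50000 bp or more, it was 93.5% for those in 12 or more libraries and 72.0% for those in 1 library. Both ends fell on exon edges of the same annotated transcript in 260 long-span circRNAs, which held a median of 6 exons. When the exons between the ends were summed, the median length was 763.5 nt (quartiles 504.5 and 1180.75 nt), and 175 of the 260 (67.3%) stayed under 1000 nt. The median for the 2 shorter classes was 640 and 347 nt. For circRNAs of 50000 bp or more it was 633 nt in those of 12 or more libraries and 1037.5 nt in those of 1 library. The genomic span was thus a median of 87.8 times the annotated exon length. Which exons the circles really held was not measured by junction reads.

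**Figure D1:**
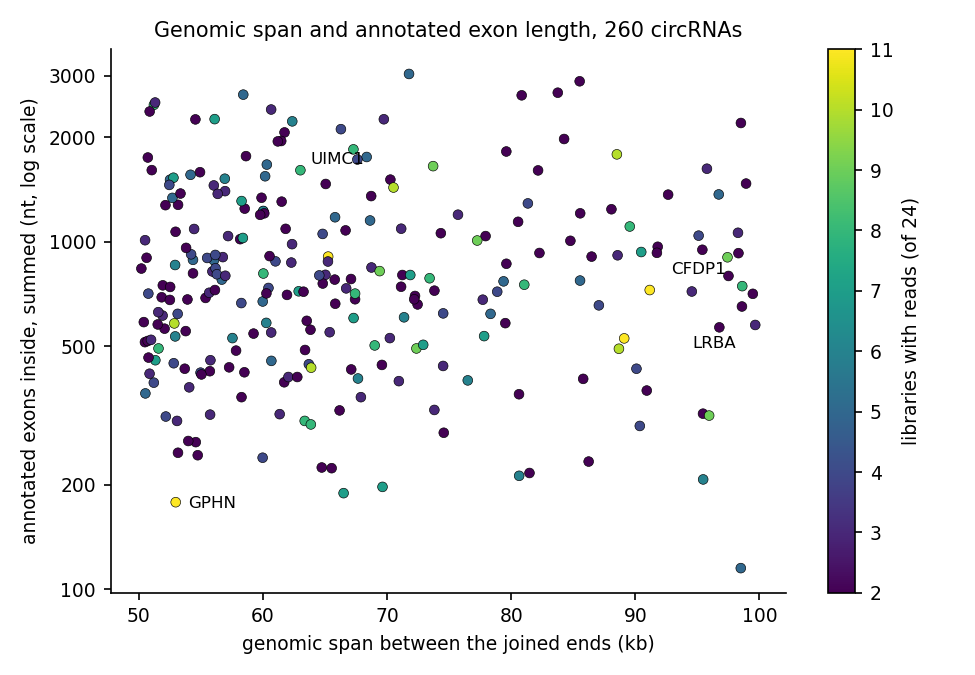
Genomic span (x axis, kb) against the summed length of the annotated exons between the ends (y axis, nt, log scale) for the 260 long-span circRNAs with both ends on exon edges of 1 transcript, coloured by the number of libraries with reads. Exon lengths lie between 115 and 3039 nt, and circ-GPHN sits low at 178 nt although it was found in 11 libraries.

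In 141 of the 260 (54.2%), a single inner intron made up at least 50% of the span. The longest inner intron took up a median of 51.5% of the span here, 51.5% in the intermediate class and 62.6% in the shortest class. Circ-GPHN, from the gene of gephyrin, the scaffold of inhibitory synapses, joined exons 9 and 10 of 23 around an intron of 52801 bp and held 178 nt of exon. Circ-FUT8 (chr7:89431025-89520131), from the gene of the enzyme of core fucosylation, enclosed an intron of 88580 bp with 527 nt of exon. The extreme in this respect, picked after the values were seen, was a circRNA of DENND1A (chr1:264683712-264782210, a gene of Rab regulation) with exons 2 and 3, 115 nt in all, in a span of 98499 bp. At the other end was one of CHD2 (chr7:86036358-86087677, a chromatin remodeller) with 18 exons and 2515 nt. The introns next to the circles were long as well, with medians of 19766 bp upstream and 18047.5 bp downstream, compared with 9327 and 7619 bp in the intermediate class and 4449.5 and 3843 bp in the shortest class. They were 20128 and 19231 bp for the 31 circRNAs of such spans in 12 or more libraries, and 15497.5 and 11482.5 bp for the 565 in 1 library. Exon 2 was the first exon in 98 of the 260 (37.7%), against 27.8% of the intermediate class and 17.7% of the shortest class. For circRNAs of such spans this share was 51.7% in those of 12 or more libraries and 33.6% in those of 1 library. An exact inverted match of at least 20 bases between the 1000 bases on either side was present in 22 of 327 (6.73%), which was a smaller share than the 13.7% and 19.4% in the shorter classes. It was present in 12.9% of the circRNAs of such spans in 12 or more libraries and in 6.23% of those in 1 library. These are descriptions of annotation and sequence, and span itself enters several of them.

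Host genes were shared by many of the circles. The 302 long-span circRNAs with a host came from 217 genes, 207 of them protein-coding, and 57 genes gave rise to 2 or more. In 294 of the 328 (89.6%) an end was also used by another circRNA of the table, against 80.6% and 61.4% in the shorter classes. A long-span circRNA was the most abundant of its host in 46 cases (15.2%). For the other 256, the leading circRNA of the host had a median of 8.03 times the mean RPM (reads scaled to 1000000 junction reads per library) and had the smaller span in 248. Dystrobrevin beta (DTNB), a component of the dystrophin complex, hosted 7, followed by RERE, a nuclear co-regulator, and the kinase-like gene ULK4 with 5 each. FUT8 and GLRA3, which encodes a subunit of the glycine receptor, had 4 each, as did ERC1.

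The circles of RERE illustrate how ends were combined. All 15 RERE circRNAs lay between exons 2 and 11 of a 24-exon transcript on chromosome 6. The most abundant joined exons 5 to 7 over 17282 bp, had reads in 22 libraries and averaged 855.4 RPM. Circ-RERE of chr6:69106984-69170871 used the same end and began at exon 4, which lengthened the span to 63888 bp. It averaged 255.0 RPM in 10 libraries. The circle that began at exon 3 with the same end (chr6:69106984-69179898) had 657 reads in 7 libraries, and the one of exons 5 to 10 (chr6:69071403-69124265) had 926 reads in 5 H and 5 L libraries. The remaining 2, of exons 4 to 10 and 5 to 11, were found in 2 and 3 libraries.

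**Figure D2:**
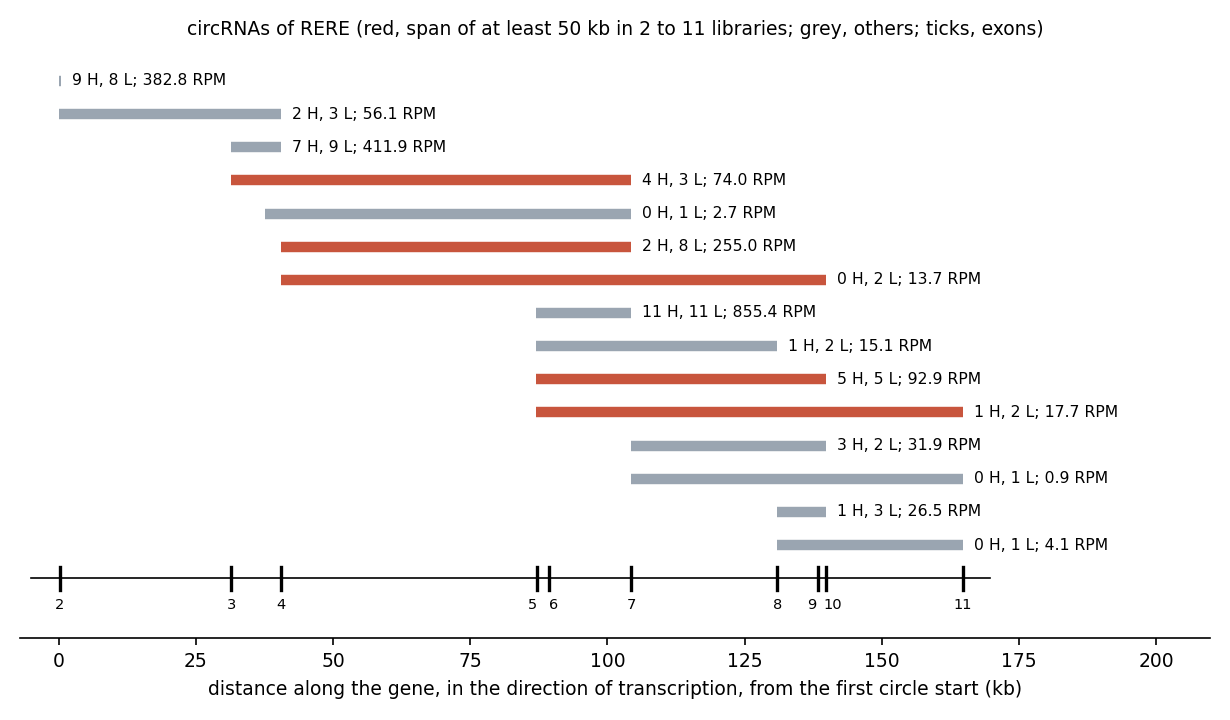
The 15 circRNAs of RERE drawn along the gene in the direction of transcription (x axis, distance in kb from the start of the first circle), with the number of H and L libraries and the mean RPM over 24 libraries beside each bar; red bars are the 5 long-span circRNAs found in 2 to 11 libraries, grey bars the others, and numbered ticks are exons. Most ends of the red bars are also ends of grey bars, among them the exon 5 to 7 circle found in 22 libraries.

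Several circles of 1 gene followed each other and shared an exon. In FUT8, the circle ending at 89520131 overlapped the one starting at 89519703 (chr7:89519703-89589111) by 429 bp, and 4 libraries held both, of the 11 and 9 in which they were found. In KCNN2, a calcium-activated potassium channel gene, 2 long circles (chr2:118513150-118582787 and chr2:118582702-118663346) overlapped by 86 bp and had 5 libraries in common, of 7 and 6. The pairs that differed by 3 bases shared some of their libraries. The long form of circ-HIVEP2, whose host encodes a zinc finger transcription factor, had 774 reads in 6 libraries and the short form 660 reads in 7, and 4 libraries held both. For MYO9A, an unconventional myosin gene, the long form was found in 6 libraries (2 H and 4 L) and the short form in 3 (all H), with 1 in common. LOC102166310 had a pair of long-span circles with starts 14 bp apart, which shared 0 libraries.

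Among the 25 intergenic ones, 13 had no end in a coding gene, 7 had 1 end in such a gene and 5 had ends in different coding genes. The chr16 junction joined ADAMTS6, a secreted metalloproteinase gene, to CENPK, a kinetochore gene. Its reads were 271 in H4, 435 in H6, 235 in H11 and 0 in the other 21 libraries. The X-chromosomal circle with ends in CT55 and LOC100519939 (chrX:110890003-110963021) had 177 reads in H11, 495 in H12, 259 in L7 and 178 in L12. A coding gene lay wholly inside 14 of the 328 (4.27%), compared with 0.409% and 0.126% of the shorter classes. Among circRNAs of 50000 bp or more, the share was 3.23% for those in 12 or more libraries and 2.65% for those in 1 library.

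Next, abundance was examined. Within the limits of the rule, 149 had reads in 2 libraries, 60 in 3 and 58 in 6 or more. In a library where a long-span circRNA was found, it had a median of 65 reads (quartiles 36 and 119.75, highest 892), and 27 of 1202 detections (2.25%) rested on fewer than 10 reads. The corresponding medians were 69 and 67 reads in the shorter classes with the same detection. Of the 179 circles with reads in 3 or more libraries, 62 had more than 50% of their reads in 1 library. The 328 together took up 115326 reads, 1.43% of the junction reads of the table. Their mean RPM over the 24 libraries had a median of 28.1 and ranged from 3.12 to 268.5. A count of 0 allows up to 3 reads, which was 4.91 to 23.3 RPM depending on the library and covers counting error only.

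The highest mean belonged to circ-KANSL1L, from a paralogue of the chromatin gene KANSL1, with exons 2 to 6 and 1784 nt. It had 450 reads in H1, 44 in H2, 59 in H5, 227 in H6, 228 in H8 and 427 in H11, and in the L group 69 in L6, 21 in L8, 210 in L9 and 219 in L10. The groups overlapped, and 14 libraries had 0 reads. Circ-CCDC7 (chr10:55828686-55918241) followed with 263.8 RPM in 3 H and 5 L libraries. Circ-GPHN had 1976 reads in 11 libraries, with 729 reads in H12 and 576 in H6, and with at most 171 reads in any L library. It averaged 372.4 ± 637.8 RPM over the H boars and 85.5 ± 153.0 RPM over the L boars (SD, n = 12 each). That difference was not called (log2FC −1.79, standard error 1.68, edgeR quasi-likelihood p = 0.285, 1.00 after Benjamini-Hochberg adjustment), and without H6 the log2FC was −1.14.

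Circ-SKAP2, from an adaptor protein gene, and circ-CADPS2, from a gene of vesicle exocytosis, were each found in 5 H and 6 L libraries. Their medians over a group were 0 to 13 reads, and their highest counts were 304 reads (SKAP2, H6) and 221 reads (CADPS2, H12). Circ-FUT8 of exons 2 and 3 was found in 6 H and 5 L libraries with up to 401 reads in H1. Circ-KIFAP3, from the gene of a kinesin-2 adaptor, circ-BICDL1, from a gene of dynein-dependent transport, and circ-CTPS2, from a CTP synthase gene, were found in 10 libraries each, with 4, 3 and 3 of these from the H group.

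**Figure D3:**
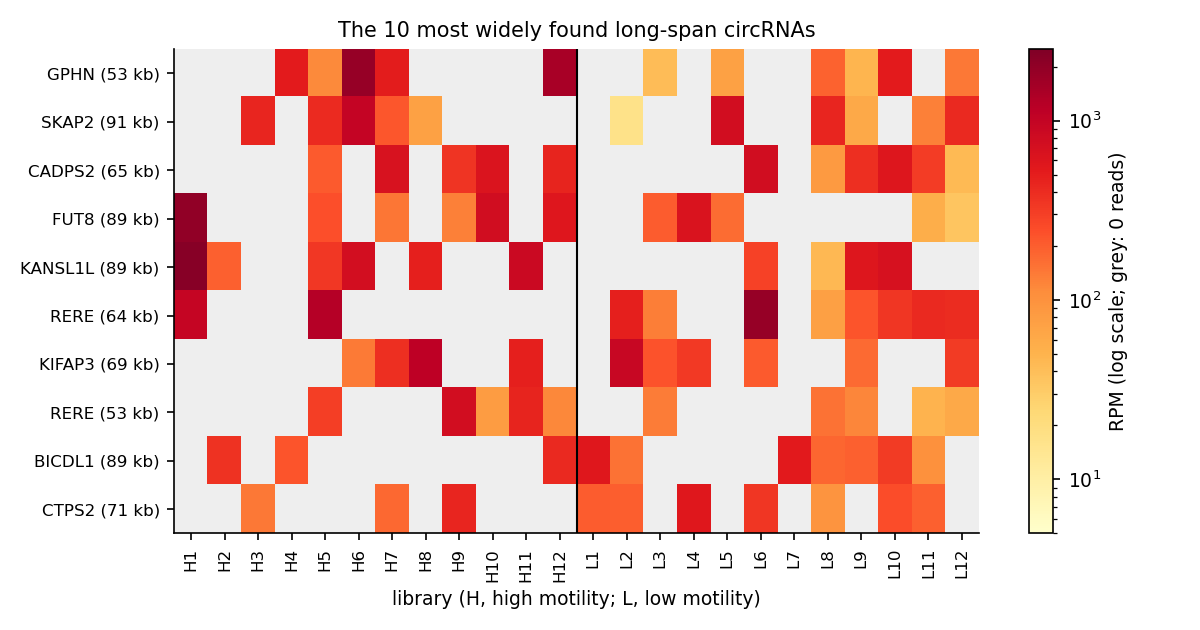
RPM (colour, log scale; grey, 0 reads) of the 10 long-span circRNAs with reads in the most libraries (rows) in the 12 H and 12 L libraries (columns). Each row is a scatter of high and empty libraries on both sides of the line, with the highest RPM in an H library in 6 rows and in an L library in 4.

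At the limits of the rule, the shortest spans inside were 50211 bp (circ-ZSWIM6, 104 reads in 2 libraries) and 50408 bp (circ-TMTC2, 51 reads in 2), and the longest just outside were 49930 bp (circ-CDC14A, 179 reads in 2) and 49860 bp (circ-LARP4, 787 reads in 5). The 4 circles with 11 libraries had 1296 to 1976 reads, and the 5 long ones with 12 libraries had 544 to 2680.

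The comparison of the L with the H group began with how many long-span circRNAs a library held. The H libraries had 15 to 74 of them, mean 41.6 ± 15.3 (SD, n = 12), and the L libraries 23 to 127, mean 58.6 ± 37.3 (SD, n = 12). The groups overlapped widely. L12 (127), L11 (116) and L8 (105) stood above all other libraries, and these 3 also had the most circRNAs of any span (5716, 4118 and 4255). They supplied 348 of the 703 detections in the L group (49.5%), against 46.7% in the intermediate class, 44.4% in the shortest class and 42.4% for all circRNAs. Without them, a comparison chosen after the data were seen, the L mean was 39.4 ± 15.3 (SD, n = 9), below that of the H group, so the direction of the difference rested on 3 boars. The part of long-span circRNAs among all circRNAs found in a library was 2.08% ± 0.35 for H and 2.00% ± 0.38 for L (SD, n = 12 each). Thinning every library to 128644 junction reads left the means at 41.5 and 58.3.

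**Figure D4:**
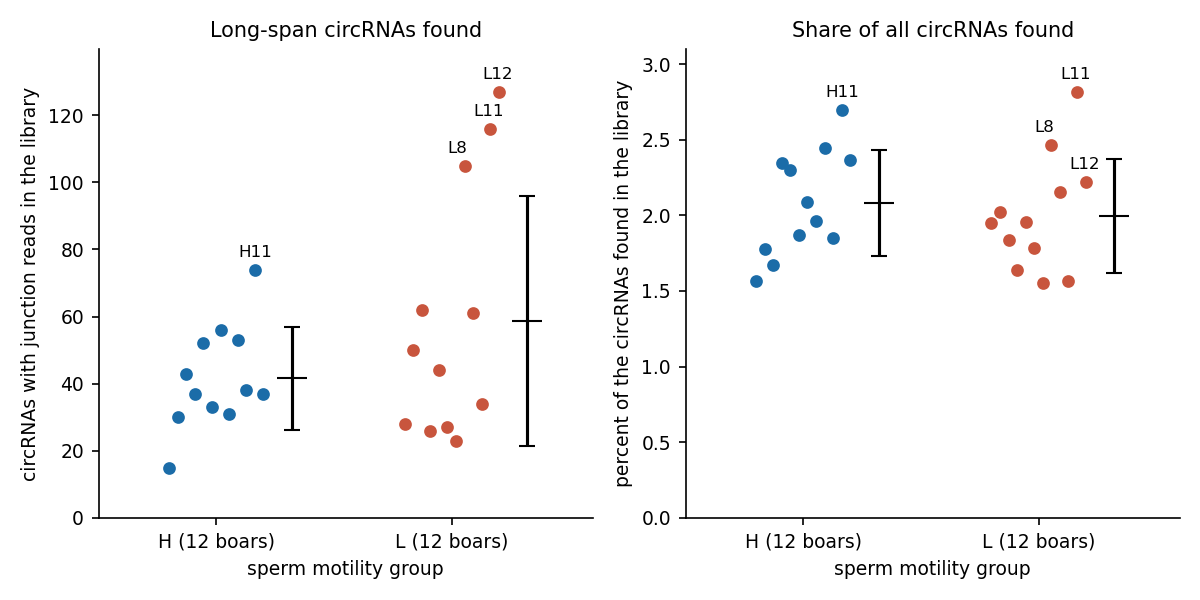
Number of long-span circRNAs with reads in each library (left) and their percentage among all circRNAs found in that library (right) for the H and L groups; points are libraries, and the bars give the mean and SD of 12 boars. L8, L11 and L12 lie at 105 to 127 circRNAs, above all others, while the percentages of the groups cover nearly the same range, 1.57 to 2.70 in H and 1.55 to 2.82 in L.

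Reads per circle went the other way. A long-span circRNA, where found, had a median of 110 ± 53.2 reads in H libraries and 66.5 ± 23.3 reads in L libraries (SD, n = 12 each), a gap smaller than the SD of the H group. For all circRNAs these values were 119.6 ± 53.4 and 78.4 ± 22.1 reads. After thinning every library to the same total, the gap for the long-span circRNAs was smaller, with 44.6 ± 19.9 reads in H and 31.7 ± 16.8 reads in L (SD, n = 12 each). The share of junction reads on the long-span circRNAs was 1.55% ± 0.41 for H against 1.27% ± 0.20 for L, and 1.50% ± 0.61 against 1.41% ± 0.52 after scaling with TMM factors (SD, n = 12 each). No test was made of these library summaries, since the circles had been chosen from the same counts.

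By detection, 154 of the 328 were found in more L than H libraries, 72 in more H libraries and 102 in equally many. The share with more L libraries was 47.0%, against 51.4% in the intermediate class, 56.6% in the shortest class and 57.3% of all circRNAs. The share with more H libraries was 21.95%, against 22.04% in the intermediate class, 17.7% in the shortest class and 29.5% of all. The shares of all circRNAs include those of 1 library, which cannot be found in equally many libraries of both groups. Without L8, L11 and L12 the counts were 88, 157 and 83, with 12 H boars then facing 9 L boars. The share with more H libraries was then 47.9%, against 46.6% in the intermediate class, 40.5% in the shortest class and 43.4% of all circRNAs. The L libraries held 58.5% of the detections of the long-span circRNAs and 58.4% of those of all circRNAs. Reads in L libraries alone were seen for 59 (18.0%), and in H libraries alone for 26 (7.93%). In the whole table, which includes circRNAs of 1 library, these shares were 37.8% and 22.5%. In the intermediate class they were 18.3% and 8.09%, and in the shortest class 20.4% and 5.51%.

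**Figure D5:**
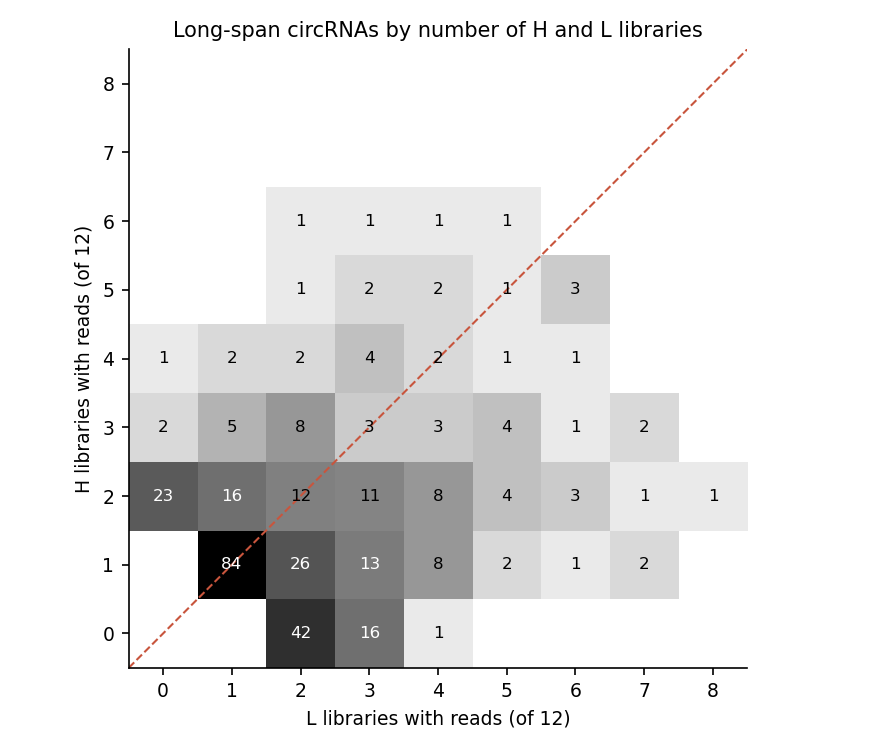
Number of long-span circRNAs (figures in the cells, shaded on a log scale) by the number of L libraries (x axis) and H libraries (y axis) in which they had reads; the dashed line marks equal numbers. The most filled cell holds 84 circRNAs with 1 library of each group, and 42 had reads in 2 L and 0 H libraries.

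Detection, which the rule had used without regard to group, was tested with a two-sided Fisher's exact test. Of the 328, 3 had an unadjusted p under 0.05, all with more L libraries. Over all 17379 circRNAs, 133 (0.765%) passed this threshold, 128 of them with more L libraries (0.737%) and 5 with more H libraries (0.0288%). The test cannot reach it with reads in 4 or fewer libraries, and among circRNAs with reads in 5 to 11 libraries 4.24% passed. The 3 circles were therefore 3 of the 87 that could pass. After Benjamini-Hochberg adjustment over all circRNAs, 0 passed.

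Circ-ARHGAP32, whose host encodes a GTPase-activating protein, joined exons 2 to 4 in 298 nt. It had 45 reads in H11 and 25, 151, 28, 20, 54, 64 and 19 reads in L2, L3, L4, L7, L8, L11 and L12. With detection in 1 H and 7 L boars, Fisher's exact test gave p = 0.0272 (n = 12 each). The chr9 junction with 1 end in ORC5, a gene of the origin recognition complex, was also found in 1 H and 7 L boars (p = 0.0272, Fisher's exact test). Its H library, again H11, had the highest count, 307 reads, against 20 to 244 reads in the 7 L libraries. Scaled to library totals, H11 had 629.1 RPM and L4 had more, 952.7 RPM. Circ-RERE of exons 4 to 7 was found in 2 H libraries, with 193 reads in H1 and 217 in H5, and in 8 L libraries with 35 to 436 reads (p = 0.0361, Fisher's exact test). In all 3, the H counts lay within the range of the L counts or above it, so the groups overlapped in level where reads were present. The 3 were picked by their detection, so its difference between the groups is not a further result. L8, L11 and L12 were among the L libraries with reads for each of the 3, and without them the p values were 0.119, 0.119 and 0.159 (Fisher's exact test). With those boars left out, p was under 0.05 for 2 other circles with more H libraries. By Fisher's exact test these were circ-UIMC1 (6 H and 0 L, p = 0.0186) and circ-KHDRBS3 (5 H and 0 L, p = 0.0451). All L reads of circ-UIMC1 were in L8 (63) and L12 (52), and those of circ-KHDRBS3 in L8 (34) and L11 (66). The choice of boars thus removed every L detection of both, so these p values are a description and not a test of the groups. Among all circRNAs, 26 (0.150%) were then under 0.05 with more H libraries.

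The reads themselves were compared with edgeR's quasi-likelihood test over the 2793 circRNAs with reads in at least 6 libraries, among them 58 of the 328. Calls were made at an unadjusted p under 0.05 where the fold change also reached 1.5 upwards or 0.67 downwards. Of the 58, 0 were called in either direction, and 0 had an unadjusted p under 0.05. In the whole test 47 circRNAs were called (1.68%), 42 higher in L (1.50%) and 5 higher in H (0.179%), and 20 (0.716%) passed the Benjamini-Hochberg adjustment. DESeq2 called 1 of the 58, the long form of circ-HIVEP2, and 3.26% of all tested circRNAs. The exact and likelihood ratio tests of edgeR called 0 of the 58. Another setting of the quasi-likelihood fit (legacy=FALSE) called circles of GLIS3, UIMC1, XRCC4 and ARHGAP32, described below. These were 6.90% of the 58, against 9.77% of all tested circRNAs. The filter mattered for these numbers. Without it, the quasi-likelihood test called 87 of the 328, but also 60.5% of all circRNAs and 99.9% of those with reads in 1 library. With reads required in at least 4 libraries, 3 of 119 were called, namely circles of FNDC3B, DTNB and MKL2, against 5.38% of all circRNAs tested. The DTNB circle had reads in 4 H and 0 L libraries and the MKL2 circle in 0 H and 4 L libraries, so both passed that filter through 1 group alone and were set against a group of zeros. The exact test without a filter called 4 of the 328, among them the chr16 junction and the same DTNB circle (chr3:113268078-113324246), against 1.28% of all. The log2FC (L relative to H) of the 58 lay between −3.27 and 3.12 with a median standard error of 1.87. Their median was 0.26 and that of all tested circRNAs 0.27, and 35 of the 58 (60.3%) were higher in L, against 61.5% of all tested circRNAs. With library totals in place of TMM the medians were −0.0068 and 0.09, and 29 were higher in each group, while 53.2% of all were higher in L.

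Circ-UIMC1 (chr2:80929268-80992288), from the gene of a ubiquitin-binding DNA repair factor, had the smallest p of the 58. It had 49, 376, 195, 135, 45 and 326 reads in H5, H6, H7, H8, H11 and H12, and in the L group 63 in L8 and 52 in L12. The H boars averaged 281.0 ± 406.7 RPM and the L boars 18.6 ± 44.5 RPM (SD, n = 12 each), with a log2FC of −3.27 (standard error 1.93, p = 0.0909, adjusted p = 1.00 by edgeR). Next towards the H group came circ-KHDRBS3 (chr4:6320162-6392035, an RNA-binding protein gene) with 5 H and 2 L libraries and log2FC −2.38 (p = 0.227). Circ-UVRAG (chr9:10229873-10301245, a gene of endosomal traffic and autophagy) had 4 H and 2 L libraries and log2FC −2.17 (p = 0.268). These values leaned on single boars, as circ-KHDRBS3 moved to −3.81 without L11, and circ-UVRAG to −3.68 without L11 and to −1.17 without H2. For circ-UIMC1, circ-KHDRBS3, circ-UVRAG and circ-LMNTD1 (chr5:48247563-48305846), every L read came from L8, L11 or L12. With these 3 boars left out, these 4 had 0 reads in the L group and were called higher in H. Since the choice of boars removed all their L reads, these calls are a description, and 1.97% of all tested circRNAs were called in that direction.

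On the side of the L group, circ-ARHGAP32 had a mean of 7.68 ± 26.6 RPM in H and 76.7 ± 86.8 RPM in L (SD, n = 12 each) and a log2FC of 3.12 (standard error 2.01, p = 0.120 by edgeR). Without H11, its only H library with reads, the fitted log2FC was 7.87, a size that depends on the prior count. Circ-XRCC4 (chr2:91384391-91465447), from a gene of DNA end joining, had 40 and 44 reads in H6 and H7 and 34 to 193 reads in 6 L libraries (log2FC 2.68, p = 0.177). Circ-GLIS3 (chr1:218008759-218069031), from a zinc finger transcription factor gene, had 50 reads in H4 and 16 to 93 reads in 5 L libraries. The short form of circ-HIVEP2 had 186 reads in H6, above the 25 to 182 reads of its 6 L libraries. Where reads were present, the H counts of circ-ARHGAP32, circ-XRCC4 and circ-GLIS3 lay within the range of the L counts. Leaving out H4 brought a call for circ-GLIS3, H6 for the short form of circ-HIVEP2 and a KCNN2 circle (chr2:118513150-118582787), H1 for the long form of circ-HIVEP2, H2 for a GLRA3 circle (chr14:15382682-15459947), and H11 for circ-ARHGAP32 and the chr9 junction. Without L8, circ-UIMC1 was called. The 0 calls of the main comparison thus became 1 or 2 without these libraries, which held some or all of the H reads, and for L8 some of the L reads, of the circle concerned. In the same comparisons 1.65% to 2.26% of all tested circRNAs were called, against 1.72% to 3.45% of the 58.

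Of the 7 circles of DTNB, 1 had reads in H libraries alone, 2 in L libraries alone and 4 in both groups, and those of 1 group were found in too few libraries for Fisher's exact test to reach 0.05. The DTNB circle of chr3:113268078-113324246 had 83, 108, 252 and 69 reads in H1, H4, H6 and H8 and 0 reads in all L libraries (p = 0.0932, Fisher's exact test, the smallest possible for 4 libraries). The DTNB circle with the same end and another start (chr3:113259005-113324246) had reads in 3 L and 0 H libraries (p = 0.217, Fisher's exact test). The chr16 junction, with its 3 H libraries, had the same p, which is the smallest possible for 3.

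Host genes were grouped into 10 lists by role, which placed 114 of the 302, and 9 of the lists are described. Genes of vesicle traffic and the Golgi, among them LRBA, UVRAG and VPS13B, hosted 21 (6.95% of those with a host, against 4.38% of all circRNAs with a host). Protein kinases and phosphatases hosted 20 (6.62% against 3.85%), genes of the cytoskeleton and adhesion 16 (5.30% against 2.83%) and transcription factors 15 (4.97% against 2.61%). Chromatin regulators hosted 12 (3.97% against 4.02%), RNA-binding and splicing genes 8 (2.65% against 3.22%) and ion channels and transporters 6 (1.99% against 1.76%). Genes of the cilium and centrosome hosted 2 (0.662% against 2.28%), and those of the ubiquitin and SUMO pathway 2 (0.662% against 4.30%). No list had a circle with an unadjusted p under 0.05 in edgeR's test, in which 0 to 6 of a list could be tested. Gene length was not matched in these shares. The median host gene length was 233468 bp over the 302 circles with a host, against 97514 bp over all circRNAs with a host.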

How the data were processed

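Long RNA libraries of SPEVs from 12 H and 12 L boars were analysed. The deposited values are raw counts of reads across back-splice junctions, made per the paper's methods by keeping circRNAs that both find_circ and CIRI2 reported with at least 2 junction reads (genome susScr11, which is Sscrofa11.1). The smallest count above 0 was 2, and 0 columns were without a library. The miRNA counts were not used.

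Members, gene lists and limits were chosen with earlier results of these data known. Groups came from the labels. Counts were tested between L and H by edgeR 4.0.16 under R 4.3.3 (glmQLFit with legacy=TRUE, TMM, library size = all junction reads) on circRNAs with reads in at least 6 libraries, and detection by two-sided Fisher's exact tests in SciPy 1.17.1, with Benjamini-Hochberg adjustment over all circRNAs tested. The filter was used because the test without it called 99.9% of the circRNAs with reads in 1 library. The quasi-likelihood p sets a group difference against the variation between boars, and Fisher's p uses only the numbers of boars with reads. RPM scales a library to 1000000 junction reads. Annotation was NCBI Release 106, matched in Python 3.11.15 with pandas 2.3.3. Tests were tried on simulated data. Named were the 10 circles with most libraries, the 5 of highest mean RPM, the 5 longest, the 5 smallest quasi-likelihood p in each direction, those with Fisher p under 0.05, those at the limits, those of the 5 hosts with most members and those the paper names, with summaries for some. Others are named after their values were seen. Alternatives were other filters, scalings and tests, DESeq2 1.42.0, a replicate block, thinning, a detection limit of 5 reads and leaving out each library. A pair of circles and 1 list of host genes are not reported here.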

Additional observations from a re-analysis of the deposited data

How the results depend on the processing

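The quasi-likelihood test called 0 of the 58 testable long-span circRNAs in either direction and 47 of 2793 circRNAs in all. Without a filter it called 59 long-span circRNAs higher in L and 28 higher in H, among 10517 of all circRNAs (60.5%). With reads in at least 4 libraries it called 1 higher in L and 2 higher in H (240 of all), and with legacy=FALSE 3 and 1 (273 of all). DESeq2 called 1 higher in L (91 of all), and the exact test without a filter called 2 in each direction (222 of all). The other filters, scalings and tests called 0 long-span circRNAs, with 15 circRNAs in all at a minimum of 8 libraries, 27 by the exact test with the same filter and 25 by the likelihood ratio test, while filterByExpr, with 3 calls in all, left no long-span circRNA to test. The H and L boars shared replicate numbers only as names, since the deviations of same-numbered libraries correlated at −0.040 to 0.163 and 2 of 12 H libraries correlated best with their own number. A replicate block called 6 higher in L (188 of all) and turned circ-GPHN from −1.79 to a log2FC of 0.014.

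Leaving out each library in turn gave 0 to 2 calls higher in L and 0 to 1 higher in H (42 to 66 of all), and for Fisher's exact test 3 to 6 long-span circRNAs with more L libraries and 0 to 1 with more H libraries, among 163 to 313 of all circRNAs. Leaving out L8, L11 and L12 together was chosen after seeing the data. It turned the difference in circles found per library to −2.14 (L minus H, from 17.0). It gave 4 calls higher in H for circles then without L reads (85 of all in both directions, 55 of them higher in H). Fisher's exact test then gave 0 with more L and 2 with more H libraries, and these 2 circles were also then without L reads. The cause of these shifts was not tested. At a detection limit of 5 reads or after thinning, and for the share of reads and the reads per circle under every alternative run, no direction changed, although thinning reduced the difference in reads per circle from −43.5 to −12.9 reads (L minus H). Low detection limits the comparison, because 241 of the 328 circles had reads in 4 or fewer libraries.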
